A study of Homo sapiens with 12 samples.

Results

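The genes examined were 8 of cholesterol synthesis and its control: HMGCS1, IDI1, FDPS, FDFT1, SQLE, LSS, INSIG1 and SREBF2. They were taken by gene symbol, and all 8 were found among the 61806 genes of the table and passed the filter on low counts. Of these, 6 are enzymes and 2 are regulators, and none is an uptake receptor, so they are called here the cholesterol synthesis genes. RNA-seq was carried out on H1, a wild-type human embryonic stem cell line, after differentiation toward heart muscle. All cells were first brought to mesendoderm progenitors with a WNT activator in DF medium, a defined medium with a lipid supplement. NP-IWP2 cells then stayed in their wells (static culture) and received the WNT inhibitor IWP2. P-DF cells were lifted and replated (passaged) on Day 2, then left in DF medium, with no IWP2. In P-IWP2 the passage on Day 2 was combined with IWP2. Each of these 3 treatments had 2 libraries on Day 12 and 2 on Day 16, 12 libraries in all. The labels do not say that the libraries came from separate cultures, so p-values measure only the spread between these libraries, which may be technical. P-DF and NP-IWP2 differ both in passaging and in IWP2, and these cannot be told apart in that comparison. By the study's account a ROCK inhibitor went with passaging, so passaged cells differ from static ones in this agent too, and it cannot be told apart from the passage.

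Cells make cholesterol from acetyl-CoA. HMGCS1 works near the start of the mevalonate pathway, IDI1 and FDPS build farnesyl diphosphate from its product, FDFT1 makes squalene, SQLE oxidises squalene, and LSS closes the ring to lanosterol, the first sterol. SREBF2 encodes SREBP-2, a membrane-bound transcription factor that turns on these enzymes when sterols run low, and INSIG1 is both one of its targets and the protein that holds it in the endoplasmic reticulum when sterols are plentiful. SREBP-2 is known to act at promoters together with NF-Y, which binds CCAAT boxes.

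On hg38, HMGCS1 (ENSG00000112972) spans chr5:43287470-43313512, IDI1 (ENSG00000067064) chr10:1039152-1049119, FDPS (ENSG00000160752) chr1:155308748-155320666 and LSS (ENSG00000160285) chr21:46188141-46228824. INSIG1 (ENSG00000186480) spans chr7:155297776-155310235 and SREBF2 (ENSG00000198911) chr22:41833079-41907307. FDFT1 is ENSG00000079459 and SQLE ENSG00000104549. Because the members share this known control, the stretch upstream of the start is shown for those in the promoter table, taken from RefSeq on GRCh38.p14. The table held 6 of the 8, and FDFT1 and SQLE were absent. Capitals mark CCAAT, read on either strand (ATTGG on the other), and the sterol regulatory element written TCACNCCAC. Each window is 120 bases, 5′ to 3′ in the direction of the gene, and ends before both the RefSeq start and the start in the deposited table. HMGCS1 (chr5:43313513-43313632, minus strand), IDI1 (chr10:1049120-1049239, minus) and FDPS (chr1:155308628-155308747, plus) lie before genes of the mevalonate and isoprenoid steps.
HMGCS1: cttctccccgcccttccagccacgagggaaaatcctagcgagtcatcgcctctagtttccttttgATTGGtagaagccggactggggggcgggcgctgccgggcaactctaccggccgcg
IDI1: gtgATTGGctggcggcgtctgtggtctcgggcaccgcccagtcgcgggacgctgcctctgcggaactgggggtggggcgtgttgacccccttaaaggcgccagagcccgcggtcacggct
FDPS: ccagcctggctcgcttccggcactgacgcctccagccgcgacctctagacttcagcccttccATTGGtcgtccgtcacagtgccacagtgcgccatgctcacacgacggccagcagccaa
LSS (chr21:46228825-46228944, minus), INSIG1 (chr7:155297656-155297775, plus) and SREBF2 (chr22:41832959-41833078, plus) follow.
LSS: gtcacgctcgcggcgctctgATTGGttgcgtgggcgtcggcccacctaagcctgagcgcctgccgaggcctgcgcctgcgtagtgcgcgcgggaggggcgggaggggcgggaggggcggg
INSIG1: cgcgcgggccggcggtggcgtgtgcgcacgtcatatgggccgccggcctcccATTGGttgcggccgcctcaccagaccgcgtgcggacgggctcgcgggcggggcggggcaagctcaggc
SREBF2: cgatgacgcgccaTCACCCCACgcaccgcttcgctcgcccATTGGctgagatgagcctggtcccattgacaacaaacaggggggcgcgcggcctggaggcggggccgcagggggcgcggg
Over the whole promoter of 300 bases, CCAAT on either strand was found in 6 of the 6 members and in 34.61% of all 35116 promoters in the table. TCACNCCAC was found in 1 of the 6, SREBF2 itself, and in 1.13% of all promoters. Only this exact spelling was searched, so its absence does not show that a promoter lacks the element. The 2 motifs share no base where both occur in the SREBF2 window. These are matches of letters and no binding was measured.

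Levels are given as FPKM, reads scaled by exon length and library total. Comparing FPKM between genes assumes that reads increase with transcript length. The labels name a long-read library kit, for which this may not hold, so the order of levels between genes is uncertain, while comparisons of one gene between libraries do not depend on it. Differences are given as log2 fold changes of read counts with TMM scaling (a correction for unequal composition of the libraries) from edgeR's quasi-likelihood test, and a gene was called at a Benjamini-Hochberg adjusted p under 0.05 over 19505 genes. The members were well covered, with 424 reads in a library at the lowest (INSIG1) and 9750 at the highest (HMGCS1), in libraries of 14885589 to 19176239 counts. SREBF2 (mean 47.9 FPKM over the 12 libraries) and HMGCS1 (41.0 FPKM) had the highest mean FPKM. FDFT1 (26.6 FPKM), IDI1 (22.4 FPKM), SQLE (19.9 FPKM) and FDPS (19.5 FPKM) followed, then LSS (13.6 FPKM) and INSIG1 (11.2 FPKM).

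The labelled cell type was checked with lists of markers. All 8 cardiomyocyte markers were detected in every library. Their summed level was 2028 to 4913 FPKM on Day 12, 2583 to 3257 FPKM in static cells on Day 16 and 7806 to 9626 FPKM in passaged cells on Day 16. Not all went with the sum. Against static cells on Day 16, edgeR called 4 higher and 1 lower in P-DF (15.3% of all genes called) and likewise in P-IWP2 (17.1%). The lower one was MYH6, at -2.02 ± 0.46 in P-DF and -1.56 ± 0.45 in P-IWP2. Static libraries also held hepatic markers (282.5 to 600 FPKM over 6 genes), fibroblast markers (374 to 688 FPKM over 5 genes) and epicardial markers (28.5 to 75.2 FPKM over 5 genes). In passaged libraries other than the one named next, hepatic sums were 0.75 to 2.57 FPKM, with 3 to 5 of the 6 genes at 0, fibroblast sums 18.0 to 34.8 FPKM and epicardial sums 0.09 to 0.28 FPKM. The Day 12 library labelled P-IWP2 replicate 5 stood apart. Its epicardial markers summed to 134 FPKM (0.28 FPKM in replicate 6), its fibroblast markers to 260 FPKM (27.3 FPKM) and its cardiomyocyte markers to 2028 FPKM (4174 FPKM). The sums do not speak for every marker. In P-IWP2 over P-DF on Day 12, 4 of 5 epicardial and 4 of 5 fibroblast log2 fold changes were above 0, with none called. UPK3B (-0.35 ± 0.67) and LUM (-0.22 ± 0.33) were below 0. The part of these cell types in the results below was not tested, and in bulk RNA fewer cells of a type and less RNA per cell cannot be told apart.

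Between Day 12 and Day 16 some of the cholesterol synthesis genes rose in each treatment, from 3 of 8 in P-DF to 7 of 8 in P-IWP2. In static NP-IWP2 cells 4 of 8 rose and none fell, HMGCS1 2.32-fold, IDI1 2.22-fold, INSIG1 2.09-fold and LSS 1.56-fold. In P-DF cells 3 of 8 rose and none fell, IDI1 1.68-fold, INSIG1 1.51-fold and LSS 1.40-fold. In P-IWP2 cells 7 of 8 rose and none fell, from HMGCS1 at 3.60-fold to SREBF2 at 1.58-fold, with SQLE the one that was not called. Of all genes tested, 1.98% were called in NP-IWP2 (0.877% higher on Day 16), 13.6% in P-DF (6.79% higher) and 27% in P-IWP2 (12.9% higher). The members' median log2 fold change was 0.71, 0.54 and 1.24 in that order, beside a median over all genes of 0.0016, -0.02 and -0.08. Whether the rise differed between treatments was tested as the interaction of treatment and day, and edgeR called 0 of 8 members for either P-DF (0.482% of all genes called; 1 member at an unadjusted p under 0.05, and 1 called by DESeq2) or P-IWP2 (1.84%; 2 members, and 0 by DESeq2) against static culture. The differences in these counts from static culture are therefore not shown to be differences in the rise. The rise in P-IWP2 was not tested against that in P-DF.

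**Figure D1:**
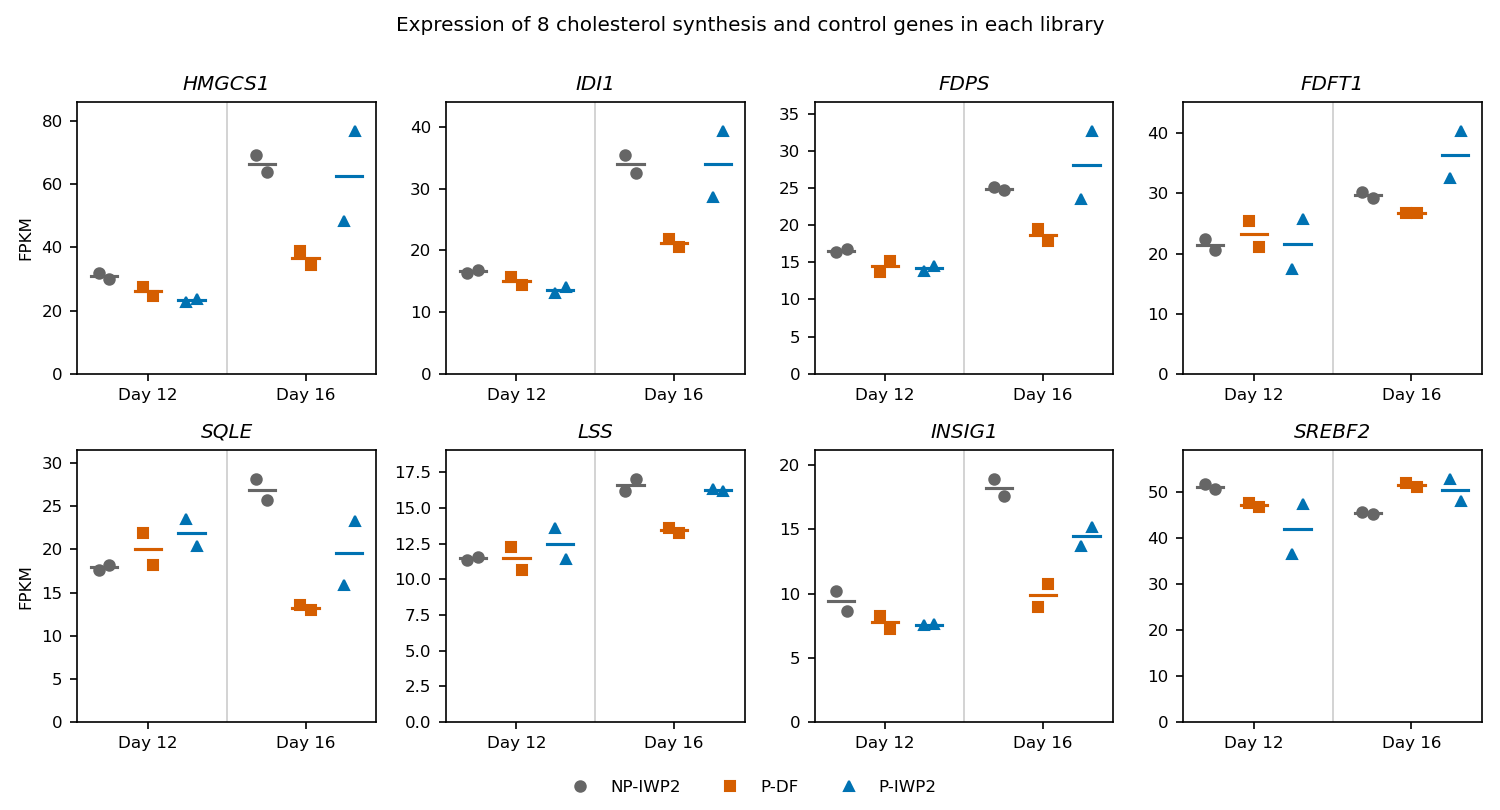
FPKM of the 8 genes in each of the 12 libraries, by day and treatment; points are libraries and bars the mean of 2. HMGCS1, IDI1, FDPS, FDFT1, LSS and INSIG1 lie higher on Day 16 than on Day 12 in each treatment, while SQLE in P-DF lies lower (12.97 and 13.52 against 18.17 and 21.92 FPKM).

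HMGCS1, which joins acetyl-CoA and acetoacetyl-CoA into the substrate of the mevalonate pathway, showed the widest range. It stood at 31.99 and 30.09 FPKM in the NP-IWP2 libraries of Day 12, with P-DF at 27.59 and 24.53 FPKM and P-IWP2 at 22.76 and 23.67 FPKM. On Day 16 it stood at 69.16 and 63.88 FPKM in NP-IWP2, with P-DF at 38.76 and 34.46 FPKM and P-IWP2 at 48.18 and 76.72 FPKM. Every Day 16 library was above every Day 12 library, P-DF was the lowest treatment on Day 16, and the P-IWP2 libraries enclosed the static ones. The log2 fold change from Day 12 to Day 16 was 1.22 ± 0.24 in NP-IWP2 (SE, n = 2 libraries a group; edgeR adjusted p = 0.0390) and 1.85 ± 0.24 in P-IWP2 (edgeR adjusted p = 0.00171). In P-DF it was 0.75 ± 0.23 and was not called (edgeR adjusted p = 0.0657).

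The isoprenoid genes were IDI1, which turns isopentenyl diphosphate into its isomer, and FDPS, which joins these units into farnesyl diphosphate. IDI1 stood at 16.39 and 16.86 FPKM in NP-IWP2 on Day 12, and P-DF (15.74 and 14.41 FPKM) and P-IWP2 (13.12 and 14.00 FPKM) were somewhat below. On Day 16 IDI1 had 35.43 and 32.54 FPKM in NP-IWP2, while P-DF had 21.90 and 20.50 FPKM and P-IWP2 28.63 and 39.34 FPKM. No library of Day 16 overlapped with Day 12, and P-DF was again below both other treatments. IDI1 was called in each treatment, at a log2 fold change of 1.15 ± 0.19 in NP-IWP2 (edgeR adjusted p = 0.0249), 0.75 ± 0.19 in P-DF (0.0322) and 1.74 ± 0.19 in P-IWP2 (0.000943). FDPS had its lowest value, 13.75 FPKM, in P-DF on Day 12 and its highest, 32.62 FPKM, in P-IWP2 on Day 16. For FDPS only the rise in P-IWP2 was called (1.40 ± 0.18, edgeR adjusted p = 0.00174), while NP-IWP2 (0.71 ± 0.18, adjusted p = 0.0823) and P-DF (0.63 ± 0.18, adjusted p = 0.0507) missed the threshold. The 2 days did not overlap in FDPS FPKM within any treatment.

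FDFT1, the squalene synthase that commits farnesyl diphosphate to sterols, ranged from 17.42 to 40.34 FPKM. Both ends lay in P-IWP2, the lowest in Day 12 replicate 5 and the highest in Day 16 replicate 6. Its log2 fold change with time was 1.14 ± 0.24 in P-IWP2 (edgeR adjusted p = 0.0112), 0.59 ± 0.24 in NP-IWP2 (0.224) and 0.46 ± 0.24 in P-DF (0.237). In this model of all 12 libraries P-IWP2 was the one treatment in which FDFT1 was called. Without Day 12 P-IWP2 replicate 5 the value was 0.81 in P-IWP2, beside 0.59 in NP-IWP2 and 0.46 in P-DF. LSS, which forms lanosterol, stood at 11.39 and 11.59 FPKM in NP-IWP2 on Day 12, beside 12.30 and 10.69 FPKM for P-DF and 13.57 and 11.45 FPKM for P-IWP2. On Day 16 LSS stood at 16.22 and 17.01 FPKM in NP-IWP2, beside 13.61 and 13.28 FPKM for P-DF and 16.37 and 16.17 FPKM for P-IWP2. Its rise was among the smaller ones in size and had the smallest standard error. LSS was called in NP-IWP2 (0.65 ± 0.11, edgeR adjusted p = 0.0242), in P-DF (0.48 ± 0.11, adjusted p = 0.0186) and in P-IWP2 (0.80 ± 0.11, adjusted p = 0.00186).

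SQLE, the squalene epoxidase between FDFT1 and LSS, differed in its pattern from its neighbours in the pathway. It stood at 17.61 and 18.22 FPKM in NP-IWP2 on Day 12, with P-DF at 21.92 and 18.17 FPKM and P-IWP2 at 23.48 and 20.43 FPKM. On Day 16 it stood at 28.11 and 25.74 FPKM in NP-IWP2, with P-DF at 13.52 and 12.97 FPKM and P-IWP2 at 15.92 and 23.27 FPKM. The static libraries were higher on Day 16, the P-DF libraries lower, and the P-IWP2 libraries of the 2 days overlapped. None of these changes with time was called. The log2 fold change was 0.70 ± 0.20 in NP-IWP2 (edgeR adjusted p = 0.105), -0.34 ± 0.20 in P-DF (adjusted p = 0.280) and 0.26 ± 0.20 in P-IWP2 (adjusted p = 0.335), where it turned to -0.16 when libraries were scaled by total counts. The difference of the P-DF effect between the days was -1.05 ± 0.28 for SQLE, with an unadjusted p of 0.0043 and an edgeR adjusted p of 0.154.

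INSIG1 had the lowest mean FPKM of the members. It stood at 10.23 and 8.67 FPKM in NP-IWP2 on Day 12, with P-DF at 8.28 and 7.28 FPKM and P-IWP2 at 7.54 and 7.64 FPKM. On Day 16 INSIG1 stood at 18.90 and 17.59 FPKM in NP-IWP2, with P-DF at 8.93 and 10.78 FPKM and P-IWP2 at 13.70 and 15.23 FPKM. In FPKM the 3 treatments did not overlap on Day 16, with static cells highest and P-DF lowest. With TMM scaling the P-IWP2 and static libraries overlapped. The log2 fold change of P-IWP2 over NP-IWP2 on Day 16 was -0.06 ± 0.17 (edgeR adjusted p = 0.843). INSIG1 was called with time in NP-IWP2 (1.06 ± 0.17, edgeR adjusted p = 0.0219), P-DF (0.60 ± 0.17, adjusted p = 0.0466) and P-IWP2 (1.34 ± 0.17, adjusted p = 0.00163).

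SREBF2, the source of the transcription factor, had the highest mean FPKM of the members. It stood at 51.67 and 50.70 FPKM in NP-IWP2 on Day 12, P-DF at 47.53 and 46.66 FPKM, and P-IWP2 at 36.45 and 47.36 FPKM, where the low value belonged to replicate 5. On Day 16 SREBF2 stood at 45.75 and 45.14 FPKM in NP-IWP2, P-DF at 52.05 and 51.10 FPKM, and P-IWP2 at 52.74 and 48.14 FPKM. In FPKM the days did not overlap within a treatment, with the static libraries lower on Day 16 and the passaged ones higher. With TMM scaling the static libraries of the 2 days overlapped. The log2 fold change with time was -0.06 ± 0.18 in NP-IWP2 (edgeR adjusted p = 0.894), 0.39 ± 0.18 in P-DF (0.179) and 0.66 ± 0.18 in P-IWP2 (0.0271). Without Day 12 P-IWP2 replicate 5, the P-IWP2 value was 0.39 (adjusted p = 0.0352).

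**Figure D2:**
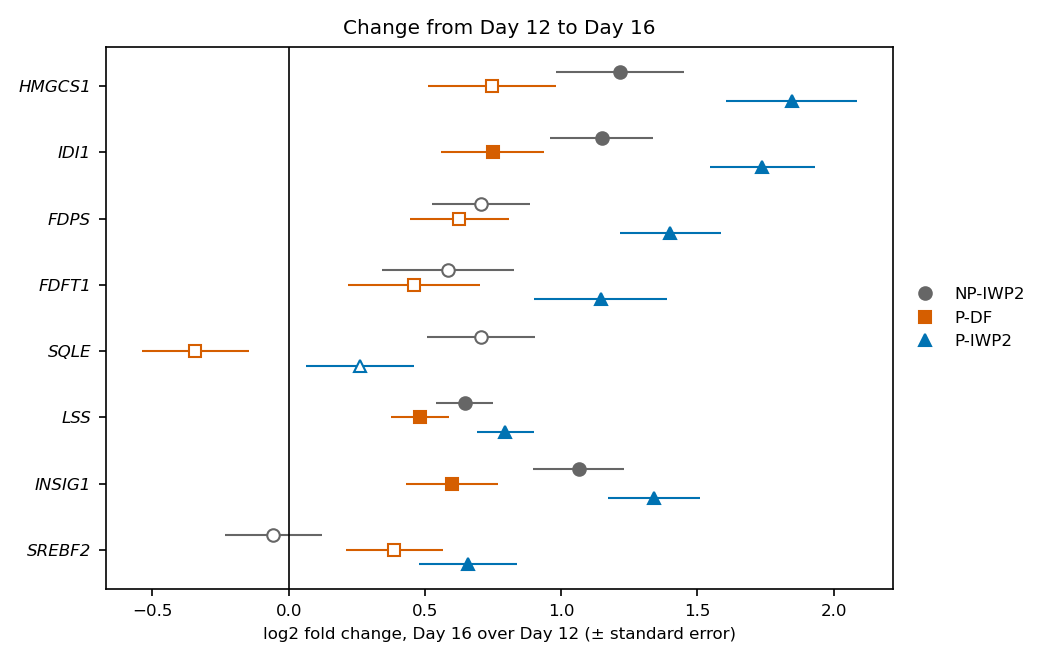
Log2 fold change of the 8 genes from Day 12 to Day 16 (x axis) in each treatment, with bars of 1 standard error; filled symbols passed the test and open ones did not. The P-IWP2 values lie to the right of the P-DF values for all 8 genes, and SQLE in P-DF (-0.34) is the lowest value.

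The number of members called with time depended on single libraries. All groups share one estimate of spread, so leaving out a library can change calls among all genes. Shares over all genes are not given for fits with a library left out, here or below. Those counts describe how calls depend on libraries and are not results about the members. Leaving out any one of the 4 NP-IWP2 libraries left 0 called in NP-IWP2, and leaving out either Day 16 P-DF library left 1. For P-DF, 0 were called without Day 12 replicate 4 or either Day 16 P-DF library, 1 without Day 12 replicate 3 or any one NP-IWP2 library, and 7 without either Day 12 P-IWP2 library, which also gave 7 in NP-IWP2. In P-IWP2 the count was 5 to 7 whichever library was left out, 5 without Day 16 replicate 6, where FDFT1 and SREBF2 were no longer called, and 7 without the Day 12 replicate 5 that stood apart, but a model of the 4 P-IWP2 libraries alone called 0 members and 0 of all genes. The direction of 6 members, HMGCS1, IDI1, FDPS, FDFT1, LSS and INSIG1, was higher on Day 16 in all 3 treatments under every alternative run.

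The scaling of the libraries moved these values. When total counts replaced TMM, the median time effect over all genes, as log2 fold change, was -0.11 for NP-IWP2, -0.28 for P-DF and -0.49 for P-IWP2, and the split of called genes in P-IWP2 went from 2523 higher and 2747 lower to 1064 higher and 6314 lower. The split went from 1325 higher and 1329 lower to 672 higher and 2530 lower in P-DF, and from 171 higher and 215 lower to 119 higher and 253 lower in NP-IWP2. On that scale 3 members rose in NP-IWP2, 1 rose and 1 fell (SQLE) in P-DF, and 6 rose in P-IWP2, whose members had a median log2 fold change of 0.84, still above that of all genes. For the interactions the split of called genes went from 34 higher and 60 lower to 17 higher and 64 lower (P-DF) and from 151 higher and 207 lower to 117 higher and 433 lower (P-IWP2).

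P-DF was compared with NP-IWP2, from which it differs both in passaging and in IWP2. No member was called on Day 12, and 2 of 8 were called lower on Day 16. The interaction with day called 0 of 8 in edgeR, so a difference between the days is not shown. On Day 16, INSIG1 was 1.58-fold lower and SQLE 1.74-fold lower in P-DF than in NP-IWP2, and none of the 8 was called higher. On Day 12 edgeR called 0 of 8 (4.01% of all genes; 0 of 8 at an unadjusted p under 0.05, and 0 by DESeq2 or limma), with log2 fold changes from -0.19 to 0.25. On Day 16 2 of 8 were called, both lower, beside 15.3% of all genes called and 9.86% called lower. The share of members is thus near the background, and the members' median of -0.32 stood beside a median of -0.02 over all genes.

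For SQLE the log2 fold change on Day 16 was -0.80 ± 0.20 (edgeR adjusted p = 0.0277), with libraries that did not overlap (12.97 and 13.52 FPKM against 25.74 and 28.11 FPKM). For INSIG1 it was -0.66 ± 0.17 (edgeR adjusted p = 0.0297), from 8.93 and 10.78 FPKM against 17.59 and 18.90 FPKM. HMGCS1 (-0.63 ± 0.23, edgeR adjusted p = 0.0983) and IDI1 (-0.45 ± 0.19, adjusted p = 0.132) were not called, although neither overlapped with static libraries in FPKM. FDPS was at -0.19 ± 0.18, LSS at -0.07 ± 0.10 and FDFT1 at 0.08 ± 0.24 (-0.15 with total counts), all within 2 standard errors of 0. SREBF2 was at 0.41 ± 0.18 (adjusted p = 0.147). With total counts 4 members were called, HMGCS1, IDI1, INSIG1 and SQLE, all lower in P-DF, while the median of all genes moved to -0.25. That scaling changed the split of all called genes on Day 16 from 1051 higher and 1924 lower to 558 higher and 2870 lower.

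Over both days together, P-DF was below NP-IWP2 for INSIG1 (-0.43 ± 0.13, edgeR adjusted p = 0.0272) and HMGCS1 (-0.40 ± 0.11, adjusted p = 0.0238), from 4 libraries against 4. These were 2 of 8 members, beside 33.5% of all genes called in that model, so a smaller share than the background. All genes called went from 2844 higher and 3681 lower to 1547 higher and 5186 lower with total counts.

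These calls rested on few libraries. Without any one NP-IWP2 library, 0 or 1 members were called on Day 16 (1 without Day 12 replicate 2), and 0 without either Day 16 P-DF library. Without either Day 12 P-IWP2 library 5 were called, HMGCS1, IDI1, INSIG1 and SQLE lower and SREBF2 higher in P-DF, and 3 without either Day 16 P-IWP2 library. Over both days, 0 were called without Day 16 NP-IWP2 replicate 1 or either Day 16 P-DF library, and 1 without Day 12 NP-IWP2 replicate 1, Day 16 NP-IWP2 replicate 2 or Day 12 P-DF replicate 4. Hepatic markers summed to 494 to 600 FPKM in the static libraries of Day 16 and 0.75 to 1.23 FPKM in P-DF, and their part in these differences was not tested.

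**Figure D3:**
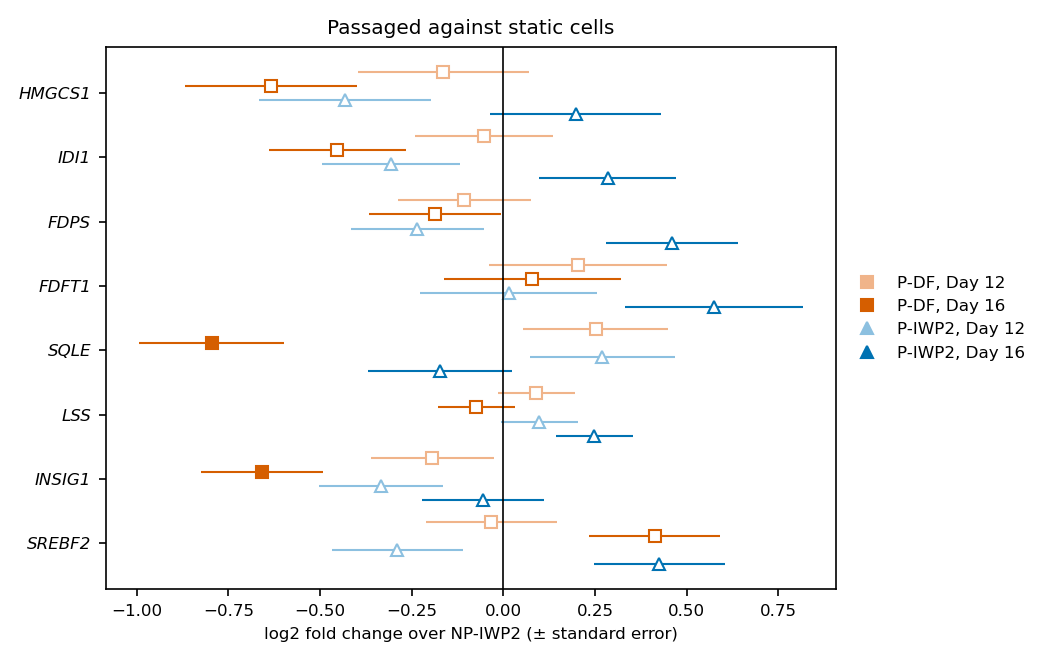
Log2 fold change of the 8 genes in passaged over static NP-IWP2 cells (x axis) on each day, with bars of 1 standard error; filled symbols passed the test. SQLE (-0.80) and INSIG1 (-0.66) in P-DF on Day 16 are the 2 values that passed.

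Passaging with IWP2 was compared with the same static libraries, so the comparisons of P-DF and P-IWP2 share their controls. No member passed the test in P-IWP2 against static culture. There edgeR called 0 of 8 members on Day 12 (1.66% of all genes called; 0 of 8 at an unadjusted p under 0.05), 0 on Day 16 (17.1%; 4 at an unadjusted p under 0.05) and 0 over both days (2.47%; 0 at an unadjusted p under 0.05), and DESeq2 and limma called 0 in each. Log2 fold changes ran from -0.43 to 0.27 on Day 12 and from -0.17 to 0.57 on Day 16. The end points on Day 16 were SQLE (-0.17 ± 0.20, edgeR adjusted p = 0.576), with 15.92 and 23.27 FPKM against 25.74 and 28.11 FPKM, and FDFT1 (0.57 ± 0.24, adjusted p = 0.131), with 32.49 and 40.34 FPKM against 29.23 and 30.28 FPKM. On Day 16, 6 of 8 log2 fold changes were above 0 with TMM and 3 with total counts, where the median of all genes was -0.31 and the split of called genes went from 1395 higher and 1941 lower to 733 higher and 3422 lower. The P-IWP2 libraries of Day 16 enclosed both static values for HMGCS1, IDI1 and FDPS.

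Single libraries changed some of these counts. On Day 16, 3 members were called higher in P-IWP2 without either Day 12 P-IWP2 library, and 1 without Day 16 P-IWP2 replicate 5. On Day 12, 1 was called lower without P-IWP2 replicate 6, and over both days 1 (FDFT1, 0.48) was called higher without Day 12 replicate 5. The P-IWP2 interaction with day called 4 members without Day 12 replicate 6, all higher. In these fits without replicate 6, Day 12 P-IWP2 is replicate 5 alone, the library that stood apart, and it is assumed to vary like the other groups. The P-DF interaction called 1, lower, without either Day 12 P-IWP2 library, which was SQLE.

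IWP2 after passaging was examined by comparing P-IWP2 with P-DF. On Day 12 the treatments lay close together, with log2 fold changes from -0.27 to 0.02, 0 of 8 members called by edgeR, DESeq2 or limma and 0 at an unadjusted p under 0.05. On Day 16 all 8 values were above 0, from 0.01 ± 0.18 for SREBF2 (-0.03 with total counts) to 0.83 ± 0.23 for HMGCS1, with a median of 0.61 beside a median of 0 over all genes. P-IWP2 libraries lay above P-DF libraries in FPKM for 7 of 8 genes, all but SREBF2. None was called, with adjusted p from 0.408 to 1.0 in edgeR's quasi-likelihood test, although 6 of the 8 had an unadjusted p under 0.05, and DESeq2 and limma called 0. IDI1 (0.74 ± 0.19), FDPS (0.65 ± 0.18), SQLE (0.62 ± 0.20), INSIG1 (0.60 ± 0.17), FDFT1 (0.50 ± 0.24) and LSS (0.32 ± 0.10) lay between. Among all genes 0% were called on Day 12 (2061 genes at an unadjusted p under 0.05, 174 genes called by DESeq2, 0 by limma on log2(FPKM + 1) and 1687 by edgeR without a filter) and 0% on Day 16 (1567 genes, 114 called by DESeq2, 1 by that limma fit and 645 by edgeR without a filter). Without either Day 12 P-IWP2 library 4 members were called on Day 16, HMGCS1, IDI1, FDPS and INSIG1, and without Day 12 P-IWP2 replicate 6, which leaves replicate 5 alone in that group, 2 were called lower on Day 12. The sizes on Day 16 leaned on P-IWP2 replicate 6. Without it the members' median was 0.31 in place of 0.61, HMGCS1 was at 0.40 and SQLE at 0.27, with 3 of 8 at an unadjusted p under 0.05, and without replicate 5 the median was 0.83.

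The other enzymes of the pathway were examined as a list of 14, which spans the mevalonate and later sterol steps. In P-IWP2, 10 of 14 rose from Day 12 to Day 16 and none fell (12.9% of all genes rose), among them ACAT2, which makes acetoacetyl-CoA (1.93 ± 0.28, edgeR adjusted p = 0.00260), and MSMO1 (1.58 ± 0.32, adjusted p = 0.00915), a demethylase of lanosterol's products. MSMO1 stood at 16.73 and 28.91 FPKM in P-IWP2 on Day 12 and at 42.57 and 61.27 FPKM on Day 16. In P-DF 1 of 14 rose (6.79% of all genes), GGPS1 (0.75 ± 0.17, edgeR adjusted p = 0.0221), which makes geranylgeranyl diphosphate outside the sterol branch, and in NP-IWP2 none was called (7 of 14 at an unadjusted p under 0.05). The list medians with time were 0.46 for NP-IWP2, 0.35 for P-DF and 0.66 for P-IWP2. With total counts, 1 rose in NP-IWP2, 1 with P-DF and 6 with P-IWP2. For the interaction with day, edgeR called 0 of 14 for P-DF (0.482% of all genes, 1 of 14 at an unadjusted p under 0.05). It called 0 for P-IWP2 too (1.84% of all genes, 6 of 14 at an unadjusted p under 0.05). A different rise from static culture is thus not shown, and P-IWP2 against P-DF was not tested for it. On Day 12 the list summed to 114.08 FPKM in P-IWP2 replicate 5, which stood apart, and 172.56 FPKM in replicate 6.

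In passaged against static cells on Day 16, 1 of 14 was called in P-DF (GGPS1, 0.65 ± 0.17, edgeR adjusted p = 0.0322) and 1 in P-IWP2 (TM7SF2, a sterol reductase, 0.71 ± 0.17, adjusted p = 0.0198), both higher, beside 15.3% and 17.1% of all genes called, so no more than the background. On Day 12 none was called in either comparison (3 of 14 for P-DF and 4 for P-IWP2 at an unadjusted p under 0.05). Over both days P-DF had 4 of 14 higher and 5 lower, with MSMO1 (-0.62 ± 0.15, edgeR adjusted p = 0.0125) and SC5D (0.48 ± 0.10, adjusted p = 0.00573) at the ends, beside 33.5% of all genes called in that model, and P-IWP2 had none (2 of 14 at an unadjusted p under 0.05). P-IWP2 against P-DF called none of the 14 on Day 12 (1 at an unadjusted p under 0.05) or Day 16 (8).

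**Figure D4:**
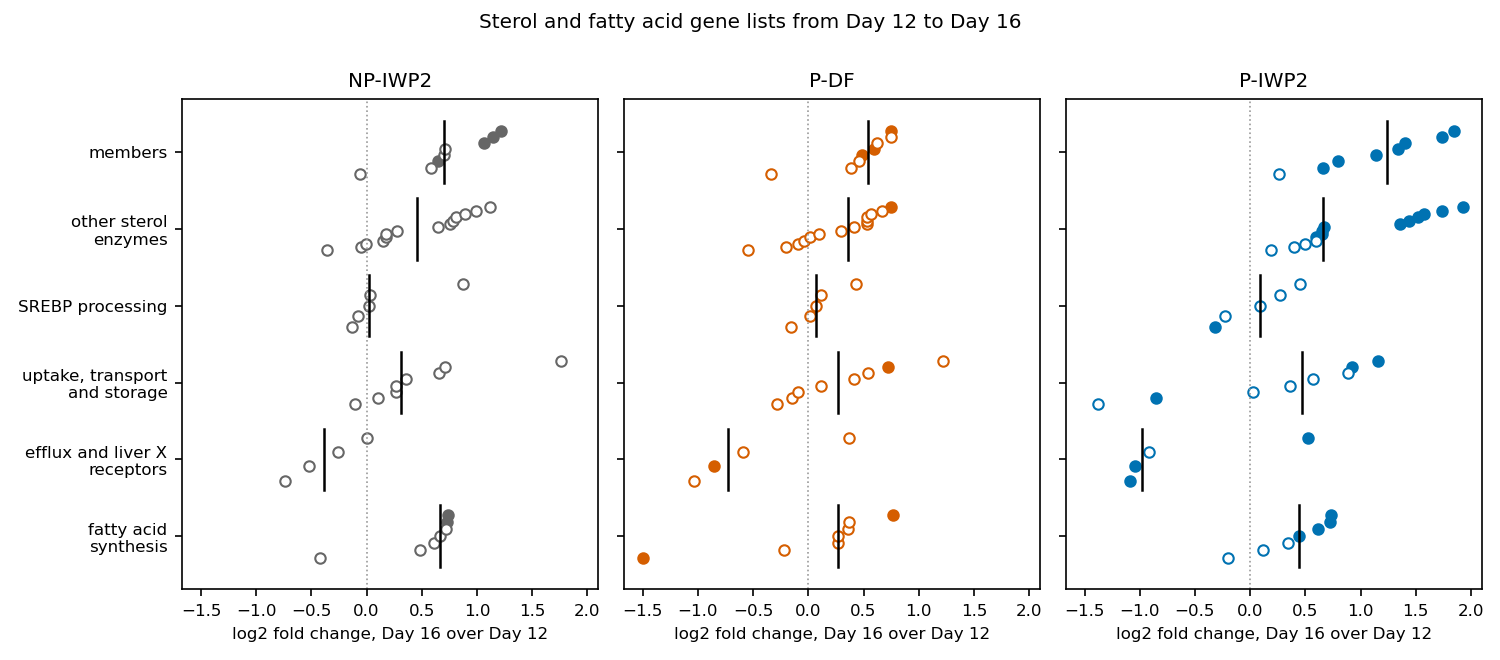
Log2 fold change from Day 12 to Day 16 (x axis) of the genes of 6 lists in each treatment; points are genes, filled where called, and black bars are list medians. In P-IWP2 the members (median 1.24) and the other enzymes (0.66) lie to the right of 0. The median of the efflux list lies to the left (-0.98), with 1 of its 4 genes to the right. That median is also below 0 in NP-IWP2 (-0.39) and P-DF (-0.73).

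The machinery that controls SREBP was a list of 5: SREBF1, SCAP, INSIG2, MBTPS1 and MBTPS2. One call was made in it over all comparisons, SCAP, the escort that carries SREBP to the Golgi, which fell in P-IWP2 with time (-0.31 ± 0.10, edgeR adjusted p = 0.0403). Of 8 genes of sterol uptake, transport and storage, 2 rose and 1 fell in P-IWP2 with time, a share near the 27% of all genes called there. These were NPC2, which moves cholesterol out of lysosomes (1.15 ± 0.18, edgeR adjusted p = 0.00372), VLDLR, a lipoprotein receptor (0.92 ± 0.15, adjusted p = 0.00409), and MYLIP, a ligase that degrades lipoprotein receptors (-0.85 ± 0.23, adjusted p = 0.0271). NPC2 also rose in P-DF (0.72 ± 0.18, adjusted p = 0.0328), the one call there, and none was called in NP-IWP2 (1 of 8 at an unadjusted p under 0.05).

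LIPA, the lysosomal lipase that frees cholesterol from lipoproteins, differed between passaged and static cells. It stood at 9.49 and 9.60 FPKM in NP-IWP2 on Day 16, at 1.52 and 1.48 FPKM with P-DF and at 1.28 and 0.96 FPKM with P-IWP2, with no overlap between passaged and static. LIPA was the 1 gene of 8 in the uptake, transport and storage list called in P-DF on Day 16, beside 15.3% of all genes, so no more than the background. In P-IWP2 3 of 8 were called, beside 17.1% of all genes. There MYLIP (-1.25 ± 0.23, edgeR adjusted p = 0.00846) was also lower and NPC2 (0.75 ± 0.18, adjusted p = 0.0236) higher. The log2 fold change of LIPA on Day 16 was -2.44 ± 0.47 in P-DF (edgeR adjusted p = 0.00982) and -2.82 ± 0.48 in P-IWP2 (adjusted p = 0.00555). On Day 12 LIPA was at 6.16 and 6.51 FPKM in static cells, 1.29 and 1.17 FPKM with P-DF, and in P-IWP2 at 6.56 FPKM in replicate 5 against 1.51 FPKM in replicate 6, the same library that held epicardial and fibroblast markers. LIPA is thus high in each library with a fibroblast sum of 260 FPKM or more. The part of the cells behind those sums, whichever they are, was not tested.

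Of 4 genes of efflux and its nuclear receptors, ABCA1, the pump that exports cholesterol, fell in P-IWP2 with time (-1.04 ± 0.23, edgeR adjusted p = 0.0135), from 21.02 and 12.17 FPKM to 7.39 and 4.66 FPKM. NR1H3, a liver X receptor, fell with time in P-DF (-0.86 ± 0.24, adjusted p = 0.0476) and P-IWP2 (-1.09 ± 0.24, adjusted p = 0.0125), and NR1H2, the other liver X receptor, rose in P-IWP2 (0.53 ± 0.13, adjusted p = 0.0221). In NP-IWP2 none of the 4 was called (1 at an unadjusted p under 0.05). With time 3 of 4 were called in P-IWP2 and 1 in P-DF, beside 27% and 13.6% of all genes. On Day 12 the list summed to 30.45 FPKM in P-IWP2 replicate 5, which stood apart, and 23.25 FPKM in replicate 6. The part of that library in the P-IWP2 changes was not tested. On Day 16 both passaged treatments lay below static culture for NR1H3 (-1.08 ± 0.24 in P-DF, edgeR adjusted p = 0.0186; -0.80 ± 0.24 in P-IWP2, adjusted p = 0.0498) and above it for NR1H2 (0.47 ± 0.14, adjusted p = 0.0470; 0.60 ± 0.14, adjusted p = 0.0176). These comparisons share the static libraries.

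The members moved together across the libraries to different degrees. Over the 12 libraries, Pearson's r of log2 CPM (counts scaled to library size) was 0.99 between HMGCS1 and IDI1, the closest pair, and 0.98 between IDI1 and FDPS. SQLE reached at most 0.59, with HMGCS1, and was at -0.11 with SREBF2, the lowest of the 28 pairs. The 12 libraries fall into 2 days and 3 treatments and share their scaling, so these values are a description. By the mean of the members' standardised log2 CPM, Day 12 libraries ran from -1.29 (P-IWP2 replicate 5) to -0.43 and Day 16 libraries from 0.24 to 1.66 (P-IWP2 replicate 6), without overlap. The 5 genes outside the members most like that mean were ARPC2 (r = 0.98), DEGS1 (0.98), CFAP20 (0.98), RDH11 (0.98) and LMNA (0.98), out of 227 genes with r above 0.9. ABCA1 ran the other way, at -0.88. Cell cycle markers, at a sum of 33.7 to 58.6 FPKM on Day 12 and 49.0 to 87.6 FPKM on Day 16, were highest in the same library, P-IWP2 Day 16 replicate 6, that was highest for HMGCS1, IDI1, FDPS and FDFT1, and their part was not tested.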

How the data were processed

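Total RNA of 12 libraries was sequenced. Per the submitters' processing notes, cutadapt 1.9.1, HISAT2 2.0.1 and HTSeq 0.6.1 were used with hg38, and DESeq2 is named without a version. The authors deposited read counts per Ensembl gene, not normalized, FPKM and exon lengths in one table. In 100% of values the deposited FPKM equals the count divided by exon length and library total (tolerance 0.0051). Of its genes, 20417 have no symbol. Columns of the authors' own comparisons were not used.

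Counts were analysed with edgeR 4.0.16 (R 4.3.3; TMM, filterByExpr, quasi-likelihood test) in one model of 6 groups and 12 libraries, and over both days in models of 8 libraries with a day term. Genes were called at an adjusted p (Benjamini-Hochberg) under 0.05. Alternatives were DESeq2 1.42.0, limma 3.58.1 on log2(FPKM + 1) and log2(FPKM + 0.1) with a mean of at least 1 FPKM or no filter, total counts, no filter, the compared groups alone, a replicate block, and each library left out. The fits were tested on simulated data. All 8 members are named in each comparison by count or value, and at most 3 called genes of each other list, by absolute log2 fold change. Other genes named for a call lost or gained, or as markers that went against the sum of their list, were chosen after their values were seen. The members and lists were chosen with earlier results of these data known. Some genes of the pathway are not reported here.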

Additional observations from a re-analysis of the deposited data

How the results depend on the processing

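With 2 libraries a group, the counts of called members moved with the model and with single libraries, and directions moved less. Over the other settings, 259 values kept direction and call, 43 gained a call, 24 lost one and 12 reversed, and with a library left out 415 kept both, 43 gained a call, 70 lost one and 4 reversed. Each member had at least 424 reads in every library, and all 8 were tested. A group with a library left out holds 1 library, which is assumed to vary like the other groups. The cause of the changes was not tested.

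For P-DF against NP-IWP2 on Day 16 (2 members), 4 were called with total counts and with limma on log2(FPKM + 1), log2(FPKM + 0.1) or without a filter, 5 with only the groups compared, and 0 to 5 with a library left out. For P-IWP2 against NP-IWP2 on Day 16 (0), 1 was called by edgeR without a filter and 1 with only the groups compared, and 0 to 3 with a library left out, beside 0 to 1 on Day 12. For P-IWP2 against P-DF, 4 were called on Day 16 by edgeR without a filter and 0 to 4 with a library left out, beside 0 to 2 on Day 12. For the time comparison in NP-IWP2 (4), 7 were called by edgeR without a filter, 7 with only the groups compared, 6 by DESeq2, and 0 to 7 with a library left out. In P-DF (3), DESeq2 called 5, limma without a filter 0, limma with the filter 2, only the groups compared 8, total counts 2, and a library left out 0 to 7. In P-IWP2 (7), only the groups compared gave 0, and a library left out 5 to 7. The P-DF interaction with day (0) gave 1 with edgeR without a filter, 1 with DESeq2, 2 with only the groups compared and 0 to 1 with a library left out, and the P-IWP2 interaction 0 to 4. Over both days, P-DF (2) gave 4 with total counts, 4 with edgeR without a filter, 4 with limma at either pseudocount and 0 to 3 with a library left out, and P-IWP2 0 to 1.

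FDFT1 in P-DF against NP-IWP2 on Day 16 turned to -0.15 with total counts and with each limma fit, and ran from -0.0037 to 0.16 with a library left out. SREBF2 in P-IWP2 against P-DF on Day 16 turned to -0.0322 with total counts, to -0.0329 with limma on log2(FPKM + 1), with or without a filter, and to -0.0335 with a pseudocount of 0.1. SQLE with time in P-IWP2 turned to -0.16 with total counts, to -0.18 with limma on log2(FPKM + 1), with or without a filter, and to -0.19 with a pseudocount of 0.1, and ran from -0.12 to 0.57 with a library left out. With a library left out, SREBF2 with time in NP-IWP2 ran from -0.12 to 0.0099, and SQLE in P-IWP2 against NP-IWP2 on Day 16 from -0.55 to 0.13. Total counts took that SREBF2 value to -0.17, its lowest.

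Libraries of the same replicate number on the 2 days did not deviate together, so the numbers were not taken as pairs (correlation of deviations 0.0754, -0.0015 and -0.0310 for NP-IWP2, P-DF and P-IWP2). With the number as a replicate block, 3, 4 and 7 members were called with time and 0 in either interaction.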

Other observations

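The neighbouring lipid pathway, 7 fatty acid genes known as targets of SREBP-1, was lower in part in P-DF than in static culture on Day 16. Of the 7, 4 were called lower and none higher (9.86% of all genes were called lower), with FASN, the fatty acid synthase, at a log2 fold change of -0.86 ± 0.17 (edgeR adjusted p = 0.0110), ACLY, which makes cytosolic acetyl-CoA, at -0.76 ± 0.15 (adjusted p = 0.0116) and SCD, a desaturase, at -0.75 ± 0.18 (adjusted p = 0.0251). FASN stood at 31.58 and 30.48 FPKM in NP-IWP2, 15.45 and 13.79 FPKM in P-DF and 16.91 and 19.90 FPKM in P-IWP2, so both passaged treatments lay below static culture without overlap. In P-IWP2 against the same static libraries edgeR called 0 of the 7, with 5 at an unadjusted p under 0.05.

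With time, FADS1, a desaturase of polyunsaturated fatty acids, was higher on Day 16 in NP-IWP2 (0.74 ± 0.14, edgeR adjusted p = 0.0347), P-DF (0.77 ± 0.14, adjusted p = 0.00921) and P-IWP2 (0.72 ± 0.14, adjusted p = 0.00733). ACLY was also higher in NP-IWP2 (0.73 ± 0.15, edgeR adjusted p = 0.0477), and ELOVL6, an elongase, fell in P-DF (-1.50 ± 0.24, adjusted p = 0.00577). In P-IWP2 4 of 7 rose (12.9% of all genes rose), FASN among them (0.74 ± 0.17, edgeR adjusted p = 0.0147). In NP-IWP2 2 of 7 rose (0.877% of all genes), and in P-DF 1 rose (6.79%) and 1 fell.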
